A study of Homo sapiens with 10 samples.

Results

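Broad promoter peaks of accessible chromatin were described in MDA-MB-231 cells, a long-established breast cancer line of the triple-negative type. A broad promoter peak is a row of the authors' deposited peak list that is annotated as promoter and is 2000 bases or longer, so the members were chosen by their length. The promoter class takes peaks within 3000 bases of an annotated transcript start. The rule was met by 1403 peaks, which are 2.85% of the 49151 promoter peaks and 0.866% of all 161934 peaks. They are listed under 1375 genes. All other promoter peaks, 47748 in number, served as the comparison and are called narrower.

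The peaks come from ATAC-seq, which reads out open DNA by where the transposase Tn5 can insert sequencing adapters. Libraries were made from ARID1A knockout cells (replicates 1 to 5, n = 5) and from control cells of the same line (replicates 1 to 5, n = 5). ARID1A is the large subunit with an ARID domain in the BAF form of the chromatin remodeller SWI/SNF. The sources used here do not say how the knockout was made or whether it is 1 clone. The list is 1 for the whole series, with 0 columns that hold a value per library. It therefore gives no comparison of knockout with control cells, no replicate error and no depth, and no value reported here separates the genotypes. Intervals in brackets are 95% Wilson intervals and cover counting error over peaks or genes, which are not replicates.

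At an active promoter, nucleosomes are cleared just before the transcription start, and sequence-specific factors, the general transcription machinery and RNA polymerase II occupy the gap. Most human promoters lie in CpG islands, stretches rich in G, C and the CpG dinucleotide that are mostly free of DNA methylation. Stretches of open or marked chromatin that run far from the start are known from cell identity genes and from genes that respond fast to signals. The SWI/SNF complex slides and evicts nucleosomes and keeps many regulatory regions open.

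The sequences around the starts of 4 genes with a broad peak are shown as examples of different functions, from a hypoxia factor to an immediate early gene. Their peaks, of 2599 to 3677 bases, all exceed the upper quartile of the class, 2449.5 bases, so they do not span its range. Each is the RefSeq promoter window of build GRCh38.p14, 250 bases before to 50 after the start, on the strand of the gene. Capitals mark matches, on either strand, to the GC box GGGCGG, the site of SP and KLF factors, and to the ETS site CCGGAAG. EPAS1 encodes the hypoxia-inducible factor HIF-2 alpha (chr2:46297157-46297456, plus strand). ZIC2 encodes a zinc finger factor of neural development (chr13:99981534-99981833, plus strand). SMARCA2 encodes BRM, an ATPase of SWI/SNF (chr9:2015097-2015396, plus strand). FOS encodes an AP-1 subunit (chr14:75278578-75278877, plus strand).
EPAS1: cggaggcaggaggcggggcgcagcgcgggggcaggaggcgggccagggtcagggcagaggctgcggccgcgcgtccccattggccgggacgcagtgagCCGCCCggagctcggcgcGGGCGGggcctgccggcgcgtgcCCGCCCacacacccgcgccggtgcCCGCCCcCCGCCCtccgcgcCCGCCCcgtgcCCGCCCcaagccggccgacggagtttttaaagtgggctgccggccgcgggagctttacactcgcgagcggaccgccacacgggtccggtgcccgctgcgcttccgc
ZIC2: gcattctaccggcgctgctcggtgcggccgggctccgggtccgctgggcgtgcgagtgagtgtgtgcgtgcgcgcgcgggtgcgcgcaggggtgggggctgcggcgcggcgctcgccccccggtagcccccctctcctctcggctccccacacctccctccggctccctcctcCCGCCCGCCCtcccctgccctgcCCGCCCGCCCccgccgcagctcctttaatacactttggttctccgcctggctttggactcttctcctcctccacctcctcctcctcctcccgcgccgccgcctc
SMARCA2: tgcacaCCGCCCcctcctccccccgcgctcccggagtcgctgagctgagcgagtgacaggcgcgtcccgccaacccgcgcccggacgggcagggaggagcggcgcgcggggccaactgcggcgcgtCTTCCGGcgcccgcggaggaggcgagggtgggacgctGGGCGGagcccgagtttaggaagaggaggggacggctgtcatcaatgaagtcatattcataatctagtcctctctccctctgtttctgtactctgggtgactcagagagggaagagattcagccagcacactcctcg
FOS: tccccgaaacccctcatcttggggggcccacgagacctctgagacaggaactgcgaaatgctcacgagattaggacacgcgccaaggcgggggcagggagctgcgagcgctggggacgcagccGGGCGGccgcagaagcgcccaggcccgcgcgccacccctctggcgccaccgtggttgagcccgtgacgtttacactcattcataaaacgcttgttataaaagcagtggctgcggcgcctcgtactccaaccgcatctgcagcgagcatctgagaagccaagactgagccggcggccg

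A pair of ribosomal protein genes with narrower start peaks is shown for contrast, each the one of its list with the most ETS matches. RPS18 encodes a protein of the cytosolic ribosome (chr6:33271825-33272124, plus strand), and MRPS34 one of the mitochondrial ribosome (chr16:1773085-1773384, minus strand).
RPS18: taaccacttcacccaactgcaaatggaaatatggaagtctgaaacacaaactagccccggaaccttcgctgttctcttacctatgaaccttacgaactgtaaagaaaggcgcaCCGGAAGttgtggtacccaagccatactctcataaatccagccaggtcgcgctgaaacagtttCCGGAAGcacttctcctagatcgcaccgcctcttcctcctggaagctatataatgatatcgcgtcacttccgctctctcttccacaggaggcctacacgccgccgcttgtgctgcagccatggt
MRPS34: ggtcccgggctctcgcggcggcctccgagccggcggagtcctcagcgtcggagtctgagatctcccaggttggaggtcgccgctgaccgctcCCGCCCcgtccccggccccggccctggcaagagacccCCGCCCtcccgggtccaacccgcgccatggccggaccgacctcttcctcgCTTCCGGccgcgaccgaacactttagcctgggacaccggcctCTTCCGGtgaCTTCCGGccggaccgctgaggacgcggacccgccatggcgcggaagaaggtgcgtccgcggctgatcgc

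The EPAS1 window was 80% G or C, with 47 CpG and 7 GC boxes, under a start peak of 3413 bases. The ZIC2 window was 75% G or C, with 35 CpG and 4 GC boxes, some of them overlapping, under a peak of 3677 bases. The SMARCA2 window was 66.7% G or C, with 30 CpG, 2 GC boxes and 1 ETS match, under a peak of 3366 bases. FOS had 64.7% G or C, 30 CpG, 1 GC box and a TATA box (letters TATAAA) under a peak of 2599 bases. RPS18 had 51% G or C, 16 CpG, 0 GC boxes and 2 ETS matches under a peak of 1082 bases. MRPS34 had 73.7% G or C, 41 CpG, 2 GC boxes and 3 ETS matches under a peak of 1867 bases. GC boxes thus stood in all 4 broad examples and ETS matches in SMARCA2 among them, while both narrower examples held ETS matches, by which they had been chosen.

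Length chose the broad peaks, so their lengths are given as a description. Broad peaks had a median of 2240 bases (quartiles 2098.5 and 2449.5) and reached 4288, and narrower promoter peaks had a median of 663 bases (quartiles 395 and 1064). Most broad peaks lay close to the threshold, with 1105 from 2000 to under 2500 bases, and 62 were 3000 bases or longer. Just inside the threshold, at 2000 bases, were the peaks of ERP29, a chaperone of the endoplasmic reticulum that shares its peak with TMEM116, of SEMA3C, a secreted guidance protein, and of PDCD1LG2, the PD-L2 ligand of PD-1. Just outside, at 1999 bases, were GGNBP2, CALCR, the calcitonin receptor, and KDM4C, a histone demethylase. Broad peaks held 8.22% of all bases in promoter peaks. Of the 1733 peaks of this length in any class, 1403 (81%) were annotated as promoter and 330 were not.

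**Figure D1:**
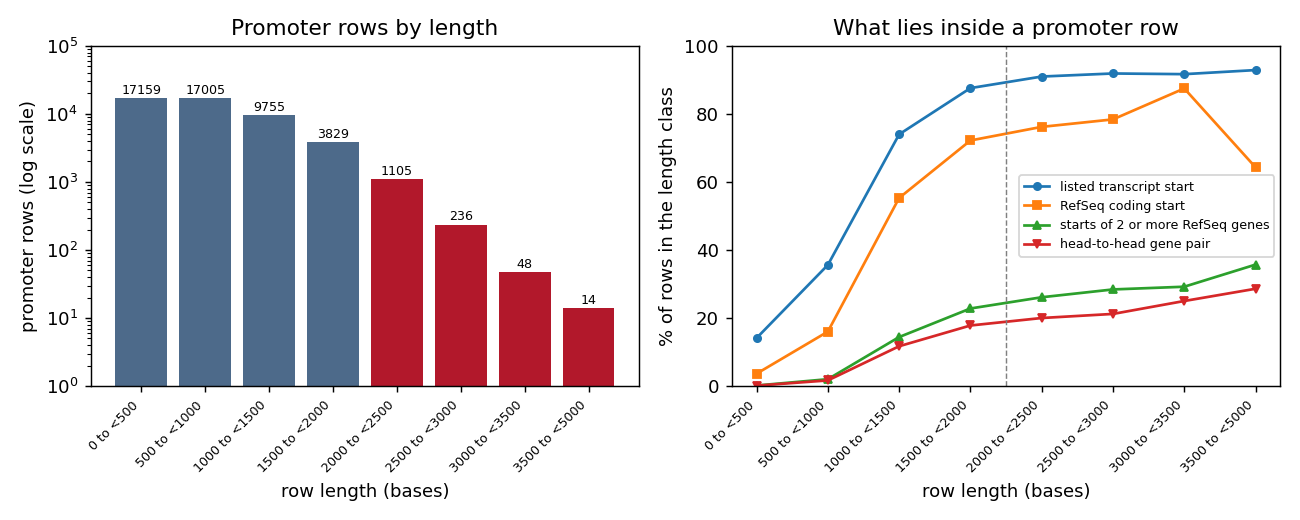
Left, number of promoter peaks (rows of the list, log axis) by length in bases, broad in red and narrower in blue. Right, percent of the peaks of each length class that hold a listed transcript start, a RefSeq coding start, starts of 2 or more RefSeq genes, or a head-to-head pair, with the dashed line at 2000 bases. The share holding the listed start climbed with length and was 91% at 2000 to under 2500 bases.

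Broad peaks sat on transcript starts. The start of the listed transcript lay inside 1279 of 1403 broad peaks (91.2%, interval 89.6 to 92.5) and inside 19033 of 47748 narrower ones (39.9%, interval 39.4 to 40.3). By the authors' classes, 1343 broad peaks (95.7%) and 30673 narrower ones (64.2%) lay within 1 kb of the start. A longer peak has more room for a start, and the part of length in this difference was not tested. The share was already 87.6% for peaks of 1500 to under 2000 bases.

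Broad peaks ran farther into the gene than before it. Over the listed start, the median broad peak reached 991 bases upstream and 1296 downstream, and the median narrower one 439 upstream and 528 downstream. More bases lay downstream in 60.2% of broad peaks (interval 57.5 to 62.9) and in 56.9% of narrower ones (interval 56.2 to 57.6). Narrower peaks of 1000 to under 2000 bases gave 60.3%, a value inside the interval of the broad peaks. Where a peak held the start of just 1 RefSeq gene, the shares were 65.5% for broad and 61.5% for narrower peaks.

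**Figure D2:**
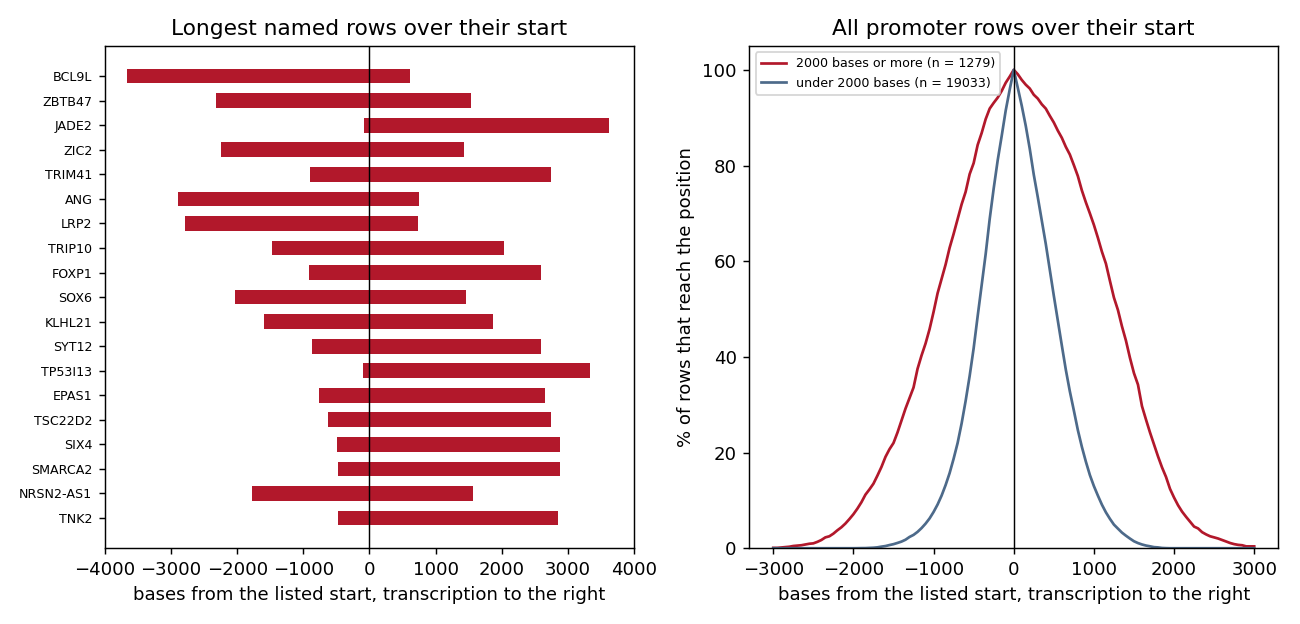
Left, extent of each of the longest named broad peaks that cover their listed start, in bases from that start with transcription to the right. Right, percent of broad (red, n = 1279) and narrower (blue, n = 19033) peaks over a listed start that reach each distance. BCL9L, ANG and LRP2 extend mainly upstream, and JADE2, TP53I13 and SMARCA2 mainly downstream.

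The 20 longest broad peaks with a gene symbol ranged from 3339 to 4288 bases and included transcription factors, chromatin proteins and signalling proteins. The longest lay at BCL9L, a coactivator of beta-catenin in Wnt signalling (chr11:118910286-118914573, 4288 bases), and ran 3669 bases upstream of the listed start and 618 downstream. ZBTB47, a BTB zinc finger gene, had 3854 bases (chr3:42651361-42655214) and shared the peak with the start of its antisense gene ZBTB47-AS1. JADE2, a scaffold of the HBO1 histone acetyltransferase complex, had 3695 bases, of which 3619 lay downstream of the start (chr5:134524237-134527931). The peak carries no strand, so sense and antisense starts under 1 peak could not be told apart.

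Transcription factors among these 20 included ZIC2, FOXP1, SOX6, EPAS1 and SIX4. ZIC2 had 3677 bases, FOXP1, a forkhead repressor, 3515 bases, SOX6, an HMG-box factor, 3505 bases, EPAS1 3413 bases and SIX4, a homeobox factor, 3367 bases. The FOXP1 peak reached 921 bases upstream and 2593 downstream, and the SOX6 peak 2038 upstream and 1466 downstream. SMARCA2, a SWI/SNF ATPase, had 3366 bases, with 483 upstream and 2882 downstream. NRSN2-AS1, an antisense RNA gene, had 3353 bases in a peak that also held the start of SOX12.

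Other members of the 20 act in signalling, trafficking and protein turnover. TRIM41, an E3 ubiquitin ligase, had 3651 bases and KLHL21, a cullin 3 adaptor, 3460 bases. ANG, which encodes the ribonuclease angiogenin, had 3650 bases in a peak that also held the start of RNASE4. LRP2, the endocytic receptor megalin, had 3524 bases, TRIP10, a CDC42-binding membrane-curving protein, 3519 bases, and SYT12, a synaptotagmin, 3455 bases. TP53I13, a p53-inducible gene, had 3436 bases, TSC22D2 3372 bases and TNK2, the kinase ACK1, 3339 bases. MIR499A had 3838 bases, but that peak stood at a distance of -1790 bases, upstream of the listed start, and covered no RefSeq coding or lncRNA start. The peaks of BCL9L, TRIM41, SOX6 and SYT12 covered their listed start but likewise no RefSeq coding or lncRNA start.

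Broad peaks more often held the starts of several genes. Starts of 2 or more RefSeq genes lay inside 374 of 1403 broad peaks (26.7%, interval 24.4 to 29) and 2641 of 47748 narrower ones (5.53%, interval 5.33 to 5.74). A pair transcribed away from each other lay inside 287 broad peaks (20.5%) and 2119 narrower ones (4.44%). Among narrower peaks over their own listed start, 13.8% held starts of 2 or more genes and 11.1% a head-to-head pair. In the nearest length class, 1500 to under 2000 bases, these shares were already 22.8% and 17.8%. At 2000 to under 2500 bases they were 26.1% and 20%. Such pairs included TRIP10 with GPR108 and the 2000-base peak of ERP29 with TMEM116. A longer peak spans more starts, and the part of length in these counts was not tested.

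Counted from the gene and not from the peak, paired starts had overlapping intervals in broad peaks and in the next length class. RefSeq promoter windows were at hand for 15842 coding genes, of which 926 had a broad peak over the start and 7233 a peak of 1000 to under 2000 bases. A gene on the opposite strand started within 1000 bases upstream in 30.8% of the genes with a broad peak (interval 27.9 to 33.8) and in 31.3% of those with 1000 to under 2000 bases (interval 30.2 to 32.4). The share was 16% for peaks of 500 to under 1000 bases and 6.22% for genes with no start peak.

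Promoters under broad peaks were richer in G and C. The median window was 70% G or C under a broad peak (quartiles 63 and 76), against 65% under all narrower peaks (quartiles 58.7 and 71.3), 66.3% under peaks of 1000 to under 2000 bases and 53.7% with no start peak. CpG numbered a median 31 per window under broad peaks, 26 under narrower ones and 6 with no peak. The observed over expected CpG ratio was 0.868 under broad peaks and 0.84 under narrower ones. The quartile ranges of broad and narrower overlapped widely, so composition alone did not separate the classes. ZBTB47, with a peak of 3854 bases, had 4 CpG in its window.

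Compared with peaks of 1000 to under 2000 bases, the GC box was more frequent under broad peaks and the ETS site less frequent. A GC box stood in 80.3% of windows under broad peaks (interval 77.7 to 82.8), 75% under peaks of 1000 to under 2000 bases (interval 74 to 76) and 58.3% of all 15842. Within bands of equal G and C content the GC box shares lay together, at 64.1% under broad peaks and 63.6% under peaks of 1000 to under 2000 bases for windows of 55 to 65% G or C, at 88% under broad peaks and 86.8% under the shorter class for 65 to 75%, and at 98.3% under broad peaks and 97.5% under the shorter class above that. The ETS letters stood in 11% of windows under broad peaks (interval 9.16 to 13.2), 21% under peaks of 1000 to under 2000 bases (interval 20.1 to 22) and 14.2% of all windows. Their share was 21.1% under peaks of 500 to under 1000 bases. It was below that of broad peaks under peaks of under 500 bases (5.01%) and with no start peak (3.45%). In the same bands the ETS shares were 11.3% under broad peaks and 25.8% under peaks of 1000 to under 2000 bases, then 14% under broad peaks and 21.2% under the shorter class, then 8.65% under broad peaks and 13.5% under the shorter class. The share was lower under broad peaks in each band, and the intervals overlapped in the band richest in G and C. The comparison within bands was chosen after the first shares had been seen.

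The ETS difference was also present with and without a neighbour on the opposite strand. With such a start within 1000 bases upstream, the letters stood in 14% of windows under broad peaks (interval 10.5 to 18.5) and 28.5% under peaks of 1000 to under 2000 bases (interval 26.7 to 30.4). Without one, the share was 9.67% under broad peaks (interval 7.62 to 12.2) and 17.6% under the shorter class (interval 16.5 to 18.6). RPS18 and MRPS34 are windows of the narrower kind that hold the letters.

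The other motifs differed by fewer percentage points than the ETS site. The CCAAT box (CCAAT, site of NF-Y) stood in 30.8% of windows under broad peaks, 37.2% under peaks of 1000 to under 2000 bases and 36.4% of all. Within the bands of G and C content, in rising order, its shares were 40%, 30% and 18.3% under broad peaks. Under the shorter class they were 44.3%, 35.4% and 23.1%, with overlapping intervals in each band. The TATA box stood in 6.7% under broad peaks, 4.24% under the shorter class and 9.75% of all windows. The cAMP response element TGACGTCA stood in 1.94% under broad peaks, 3.51% under the shorter class and 2.56% of all windows. In the same bands its shares were 1.03%, 2.57% and 1.38% under broad peaks. Under the shorter class they were 4.05%, 3.86% and 2.3%, again with overlapping intervals. The AP-1 site TGANTCA stood in 3.78% under broad peaks, 4.02% under the shorter class and 5.7% of all windows. The E-box CACGTG stood in 9.07% under broad peaks, 10.7% under the shorter class and 8.82% of all windows. A match is a run of letters and not a bound site, and these windows cover 300 bases around the start and not the whole peak.

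**Figure D3:**
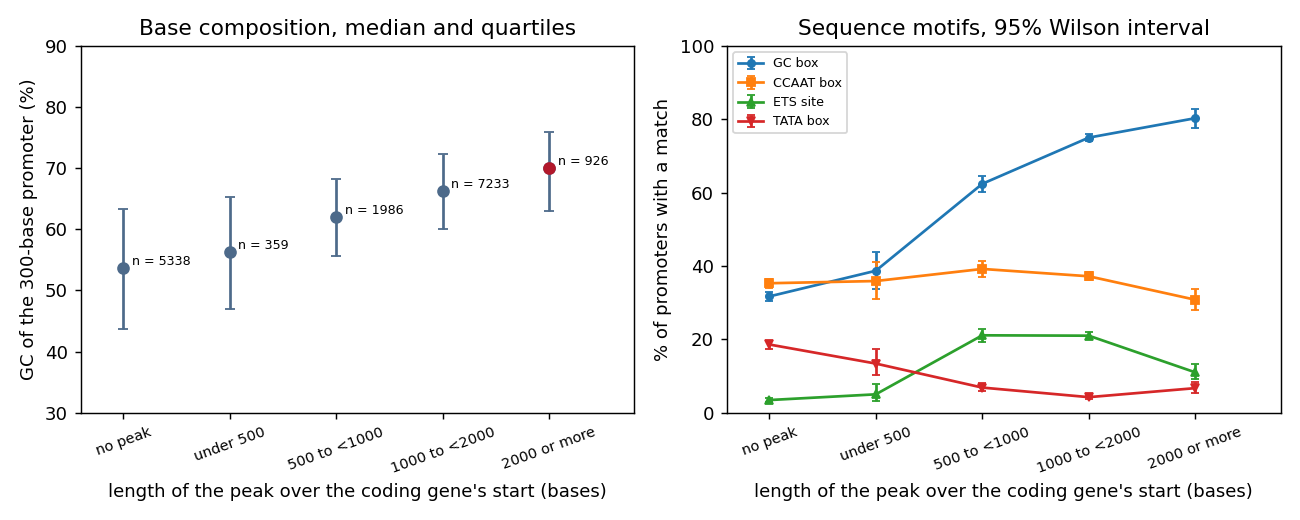
Left, percent G or C of the 300-base RefSeq promoter window of coding genes by the length of the peak over the start (point, median; bars, quartiles; n, genes). Right, percent of those windows with each motif on either strand, with 95% Wilson intervals. The GC box share climbed with length to 80.3%, while the ETS share was 11% under broad peaks and 21% at 1000 to under 2000 bases.

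Genes with a broad start peak were longer. Their median length was 44364 bases, against 29831 for genes with a narrower start peak and 15363 for genes with none. Of genes with a start peak, 14.4% of those of 100000 bases or more had a broad one (282 of 1957, interval 12.9 to 16), against 7.66% of those under 10000 bases (165 of 2154, interval 6.61 to 8.86). The shares for genes of 10000 to 30000 and of 30000 to 100000 bases were 7.2% and 7.76%. The higher share was thus seen in the longest class, where SMARCA2, with 178274 bases, falls. FOS, with 3403 bases, shows that short genes were among the members too.

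Gene groups were compared by the share of genes whose longest promoter peak was broad. Over the 14317 coding genes that paired with a promoter peak, 1162 had a broad one, which is 8.12%, and the median longest peak was 1228 bases. The lists were chosen with earlier results known, so the counts that follow are read against 8.12% with no test. A peak counts here for the gene it is listed under. A peak over the starts of neighbouring genes is listed under 1 of them, and some identifiers had no symbol paired, so these counts miss genes that share a broad peak. Counted instead by any promoter peak within 1000 bases of the gene start, the background was 8.52%. That count is given for part of the lists only.

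The lists of immediate early and stress response genes and of MAPK feedback inhibitors had shares above the background, though most of their genes were not broad. Of 28 immediate early and stress response genes, 8 had a broad peak (28.6%, interval 15.3 to 47.1). They included ZFP36L2, whose protein binds AU-rich mRNAs, with 2709 bases, the zinc finger factor EGR3 with 2650 bases, and FOS with 2599 bases. Without a broad peak were EGR2 at 1982 bases, GADD45A at 1973 bases and ATF4 at 1878 bases, all just under the threshold. Counted by the gene start, 7 of 29 immediate early and stress response genes (24.1%) were broad. Inhibitors that feed back on MAPK signalling gave 5 of 16 (31.2%, interval 14.2 to 55.6). SPRY1, a Sprouty inhibitor of receptor tyrosine kinases, had 3234 bases (chr4:123396641-123399874), of which 3079 lay downstream of the start, SPRED2 had 2651 bases, and the MAPK phosphatase DUSP1 had 2287. DUSP16 at 1981 bases, DUSP10 at 1925 bases and LRIG1 at 1784 bases stayed under it.

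Other signalling lists lay nearer the background. TGF-beta and BMP feedback genes gave 3 of 21 (14.3%), with the BMP antagonist NOG at 2422 bases, the signal transducer SMAD2 at 2264 bases and the co-repressor SKIL at 2086 bases. NF-kB genes gave 2 of 15 (13.3%), the adhesion molecule ICAM1 at 2428 bases and the subunit NFKB2 at 2006 bases. The list of chemokine and interleukin genes gave 0 of 54 (interval 0 to 6.64), and its longest was IL6R at 1836 bases. It held the receptor gene IL6R but not the receptor gene IL15RA, which had a broad peak of 2264 bases over its start. The 0 therefore holds for the list as drawn and not for all interleukin receptor genes.

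Actin cytoskeleton genes gave 7 of 28 (25%, interval 12.7 to 43.4), and 6 of 28 (21.4%) by the gene start. Of the 7, the peaks of FLNA and PXN covered neither their listed start nor a RefSeq start. ACTG1 and ACTB, the cytoplasmic actins, had 3121 and 3065 bases, and the crosslinker ACTN1 had 2929. The ACTG1 peak lay mainly upstream, with 2700 bases before the start and 420 after it, and the ACTB peak had 1957 before and 1107 after. CDC42EP3 at 1961 bases, TAGLN2 at 1927 bases and RND3 at 1921 bases were the longest of those under the threshold. Tubulin genes gave 1 of 23, TUBA1B at 2036 bases. Keratin genes gave 1 of 20, KRT8 at 2160 bases, and 0 of 11 by the gene start.

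Transcription factor families differed among themselves. SOX genes gave 4 of 13 (30.8%, interval 12.7 to 57.6), with SOX6 at 3505 bases, SOX5 at 2728 and SOX13 at 2296, while SOX3 had 1448 bases, SOX2 1143 and SOX15 1001. Their median longest peak was 1001 bases, below the 1228 of all genes, so the SOX list held both long and short peaks. Forkhead genes gave 4 of 29 (13.8%), with FOXP1 at 3515 bases, FOXC1 at 2819 and FOXP2 at 2530. Counted by the gene start, forkhead genes gave 7 of 25 (28%), among them FOXA2 (2488 bases), FOXP4 (2251) and FOXD2 (2013) in broad peaks listed under a neighbour or under an identifier with no symbol paired. KLF and SP factors gave 2 of 21 (9.52%), SP3 at 2584 bases and KLF3 at 2149, and 3 of 20 (15%) by the gene start. Zinc finger genes named ZNF gave 14 of 407 (3.44%, interval 2.06 to 5.69), led by ZNF804A at 3273 bases. HOX genes gave 0 of 12 (interval 0 to 24.2), with HOXB9 at 1959 bases the longest. The HOX list has 39 genes, of which 16 paired with an identifier, so the count leaves out most of the family.

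SWI/SNF subunits gave 4 of 27 (14.8%, interval 5.92 to 32.5). Besides the ATPase SMARCA2 with 3366 bases, ARID1B, the paralog of ARID1A, had 2782 bases (chr6:156777879-156780660) and SMARCD2, a BAF60 subunit, 2234 bases. ARID1A itself was not among the broad genes, since the longest of its 7 promoter peaks had 1758 bases. SMARCC2 at 1880 bases and SS18 at 1766 bases were also under the threshold. BICRAL had 1846 bases under its own identifier, but its RefSeq start lay inside a broad peak of 2190 bases listed under the neighbour TBCC, which makes 5 of 27 (18.5%) by the gene start. The list does not tie any of these peaks to knockout or control libraries.

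Replication-dependent histone genes gave 5 of 25 (20%, interval 8.86 to 39.1), led by H3C2 at 2429 bases, H1-4 at 2368 and H2BC15 at 2278. These genes are short and stand in clusters, so 1 peak can cover several. By overlap with the gene itself, 15 of 42 histone genes lay under 8 distinct broad peaks, and 6 of those peaks covered 2 or more histone genes. The longest covered H2AC20, H2AC21 and H2BC21 with 3323 bases (chr1:149885506-149888828), listed under the neighbour BOLA1. These 15 genes are therefore not independent of each other.

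Genes of metabolism and RNA handling were mixed. Glycolysis genes gave 3 of 21 (14.3%), with GAPDH at 3148 bases, the phosphofructokinase PFKP at 2224 and the hexokinase HK2 at 2185, while HK1 and PKM had 1733 bases each. Splicing factors of the SR and hnRNP families gave 3 of 24 (12.5%), namely HNRNPU, HNRNPH1 and HNRNPK, at 2453, 2313 and 2230 bases. By the gene start they gave 4 of 24 (16.7%). DEAD and DEAH box helicases gave 4 of 45 (8.89%), led by DDX6 at 2736 bases, and 3 of 48 (6.25%) by the gene start. RAB GTPases, which direct vesicle traffic, gave 6 of 48 (12.5%), led by RAB43 at 2565 bases, and 5 of 51 (9.8%) by the gene start. Solute carriers gave 23 of 303 (7.59%, interval 5.11 to 11.1), a share near the background, and 25 of 278 (8.99%) by the gene start.

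Ribosomal protein genes held few broad peaks. They gave 1 of 63 (1.59%, interval 0.281 to 8.46), with a median longest peak of 1066 bases. That peak, at RPL3, had 3338 bases and stood 1778 bases downstream of the listed start. Counted by the gene start, 1 of 79 was broad, and it was RPL28, under a peak of 2536 bases that also held the start of TMEM238 and whose identifier had no symbol paired. Mitochondrial ribosomal protein genes gave 0 of 55 under their own identifiers (interval 0 to 6.53), where MRPS2 was the longest at 1971 bases. By the gene start they gave 2 of 75 (2.67%), MRPL12 under a peak of 2855 bases listed under HGS, and MRPL14 under one of 2082 bases.

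For other housekeeping lists and for the cyclins the interval held the background of 8.12%, and some shares changed with the count. Translation factors gave 1 of 18 (5.56%, interval 0.988 to 25.8), EIF4E at 2016 bases, and 2 of 22 (9.09%) by the gene start. Heat shock proteins and chaperones gave 1 of 20 (5%, interval 0.888 to 23.6), HSP90AB1 at 2148 bases, and ubiquitin genes 0 of 21 (interval 0 to 15.5), with UBE2G1 at 1843 bases the longest. By the gene start, heat shock proteins and chaperones gave 1 of 23 (4.35%) and ubiquitin genes 0 of 20. Cyclins and CDK inhibitors gave 1 of 16 (6.25%), CDKN2C at 2427 bases, but 3 of 20 (15%) by the gene start, with CDKN1A under a peak of 2475 bases listed under DINOL and CCNE2 under one of 2496 bases listed under NDUFAF6. At 1500 bases these lists lay above the background of 28.7%, with 61.1% for translation factors, 60% for heat shock proteins, 38.1% for ubiquitin genes and 31.2% for cyclins. The immediate early and stress response list gave 60.7% at 1500 bases, close to translation factors and heat shock proteins. At 2500 bases it gave 17.9%, and both of those lists gave 0%. ACTB and GAPDH, which are used as housekeeping genes too, had broad peaks.

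**Figure D4:**
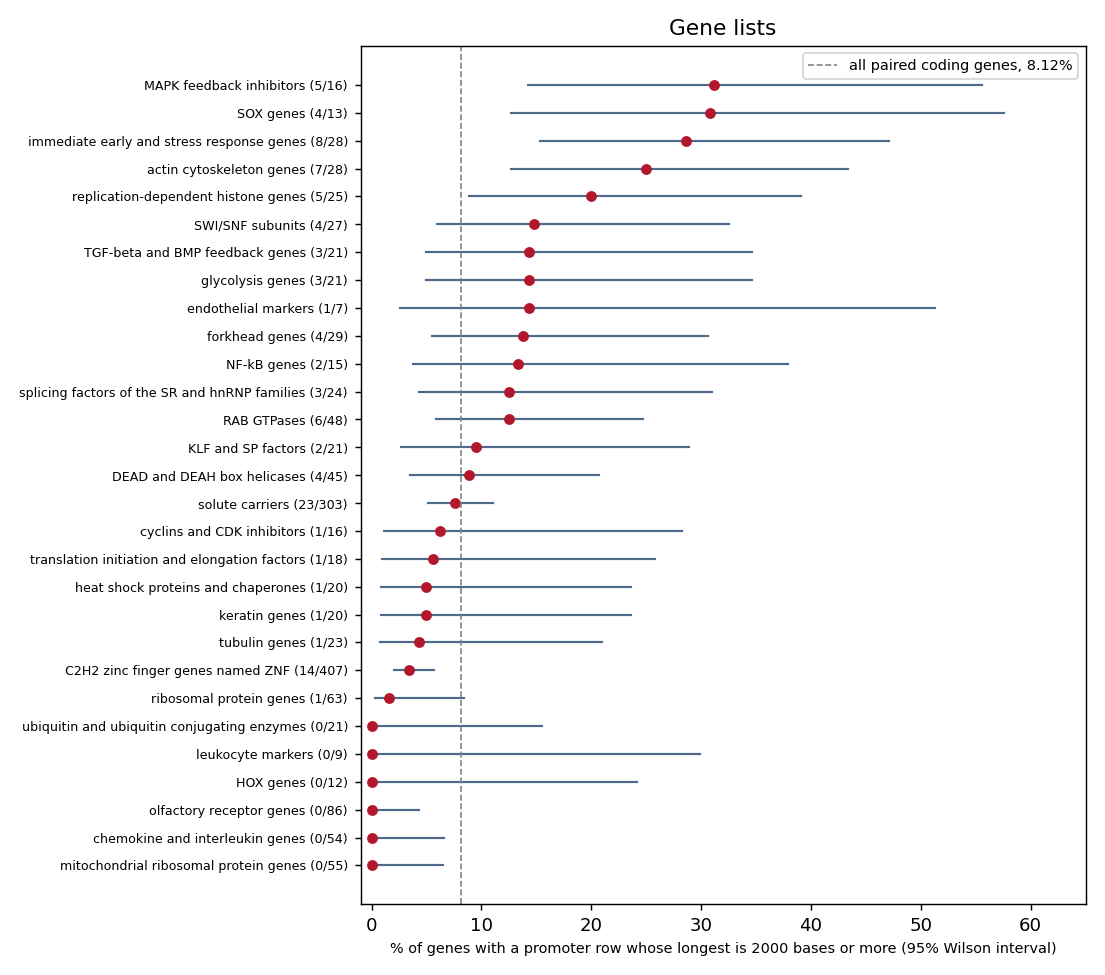
Percent of the genes of each list with a promoter peak whose longest peak was broad (points) with 95% Wilson intervals (lines), and the share over all paired coding genes, 8.12% (dashed). Counts are given beside each name. MAPK feedback, SOX, immediate early, actin and histone lists lay above the line with their whole interval, and the ZNF, olfactory, chemokine and mitochondrial ribosomal lists below it, each peak being counted for the gene it is listed under.

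Markers of other cell types were checked against the label. MDA-MB-231 is a basal-like line, and of its markers the receptor EGFR had a broad peak of 2491 bases (chr7:55018351-55020841), VIM had 1551 bases and CD44 1336. Leukocyte markers gave 0 broad of 9 genes with a promoter peak, and olfactory receptors 0 of 86 (interval 0 to 4.28). Of the defining leukocyte and endothelial markers, CD3E, CD4, CD79A, PECAM1 and TEK had 0 promoter peaks, while the longest was 617 bases at PTPRC, 1669 at CD8A, 1563 at CD14 and 1701 at CDH5. Endothelial markers gave 1 of 7, the junction protein ESAM at 2246 bases. Luminal genes had peaks as well, KRT8 a broad one of 2160 bases, ESR1 of 1617 bases, KRT18 of 1436 and GATA3 of 1050. Expression was not measured.

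Families were also read from the leading letters of gene symbols, a grouping chosen after the values were seen and covering names and not always relations. As for the lists, a peak counts for the gene it is listed under. Of 361 such families with 6 or more genes, 52 had 3 or more broad genes. The DOCK family, activators of RAC and CDC42, had 5 of 11 (45.5%), namely DOCK9, DOCK2, DOCK10, DOCK4 and DOCK5, at 2497 to 2079 bases. Septins, filament-forming GTPases, had 4 of 10, SEPTIN11 at 2711 bases, SEPTIN10 at 2569, SEPTIN9 at 2530 and SEPTIN8 at 2132. Phosphodiesterases named PDE had 5 of 21, genes named CDK 6 of 28, and BTB zinc finger genes named ZBTB 8 of 37. With so many families, some high shares arise by chance, and no test was made.

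At the other end, 22 families of 15 or more genes had 0 genes with a broad peak listed under them. The number of all families of this size is not given here. With a share of 8.12% over all paired coding genes, some families hold 0 by chance, and no test was made. In 4 of the 22 families the RefSeq start of at least 1 gene still lay inside a broad peak, and in 18 none did. The 4 were the CEP genes of the centrosome, with CEP57 (2292 bases) and CEP95 (2221) among 4 such starts, the RNA polymerase subunits POLR, with POLR1D (2453) and POLR2H (2273), the mitochondrial ribosomal MRPL genes, and the chaperone genes DNAJC. The 18 included the cilia genes named CFAP (38 genes), the Mediator subunits MED (28) and the nucleoporins NUP (19), whose longest listed peaks were 1950 bases for CFAP, 1941 for MED and 1980 for NUP.

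Some genes had a second broad promoter peak. This held for 28 genes, and 0 had 3. TNK2 had peaks of 3339 and 2915 bases, EPAS1 of 3413 and 2432, SYT12 of 3455 and 2156, and RIPOR1 of 3154 and 2025. The largest sum, 7081 bases, was at an identifier with no symbol paired by position (ENSG00000132510), with peaks of 3319 and 3762 bases, of which the first covers the RefSeq start of the histone demethylase gene KDM6B. Broad peaks otherwise stood in ordinary surroundings. Both broad and narrower peaks had a median of 2 other peaks within 10000 bases, and the gap to the next peak was a median 5351 bases for broad and 3476 for narrower peaks, or 4828 for narrower peaks over their listed start.

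The remaining 124 broad peaks did not cover the listed start, with 48 upstream and 76 downstream of it. A distance of up to 1000 bases separated 64 of them from it, and 16 covered a RefSeq start. Examples are FTH1, the ferritin heavy chain, whose peak of 2673 bases stood at 2995 bases, downstream, and PXN, the focal adhesion protein paxillin, whose peak of 2447 bases stood at -2791 bases, upstream. For such peaks the listed gene is the nearest by the authors' annotation and no more.

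Small RNA genes lay inside some broad peaks. At least 1 tRNA gene lay wholly inside 11 of 1403 broad peaks (0.784%) and 76 of 47748 narrower ones (0.159%). Per Mb this was 7.96 tRNA genes in broad peaks and 2.58 in narrower ones. The tRNA genes stand in clusters, and 26 of them shared those 11 broad peaks. A peak of 3063 bases on chromosome 17 held 4, TRD-GTC2-11, TRG-TCC3-1, TRP-CGG1-3 and TRW-CCA1-1, and the ANG peak held 3. MicroRNA genes lay inside 1.64% of broad and 0.408% of narrower peaks, or 7.35 genes per Mb in broad and 5.51 in narrower peaks. MIR4492 lay in the BCL9L peak.

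Broad peaks were spread over the genome. Their share of promoter peaks ran from 1.93% on chromosome 19 (58 of 3004, interval 1.5 to 2.49) to 3.78% on chromosome 6 (88 of 2326, interval 3.08 to 4.64). Chromosome 19 is rich in ZNF genes, and chromosome 6 holds the main histone clusters, and the part of these genes in the shares was not tested. A single broad row lay on the mitochondrial genome, at 1839 to 4066 (2228 bases), where DNA carries no nucleosomes.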

How the data were processed

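ATAC-seq of 5 ARID1A knockout and 5 control libraries was represented by 1 peak list for the whole series. Bowtie2 2.3.5.1 as aligner, MACS2 2.2.6 as peak caller and hg38 as build come from the submitters' processing notes. The sources used here do not give the peak threshold, the handling of duplicates, the merging across libraries or the annotation release, and these steps set every peak length. Per the file headers, the authors deposited positions, lengths and distances in bases, in 161934 rows and 17 columns, with 0 columns per library. Depth is unknown, and the planned count test could not be run.

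Lengths equalled end minus start plus 1 in all 161934 rows, and all distances were recomputed. RefSeq symbols (GRCh38.p14) were paired with identifiers by position, where the overlap was at least 0.8 of the union, or 0.3 with starts within 500 bases. A second rule took identifiers whose listed transcripts all lay inside 1 RefSeq gene of known strand, with an end within 500 bases. Together the rules paired 29584 of 39880 identifiers, 1311 of 1403 broad peaks and 15656 of 20033 coding genes (78.2%). Of the unpaired broad peaks, 41 covered a RefSeq start and 51 did not. A start peak is a peak over the RefSeq start. Motifs were searched on both strands.

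The members and the 29 gene lists were chosen with earlier results of these data known. Genes named are the 20 longest with a symbol, up to 3 broad and 3 other genes per list, those at the threshold and ARID1A; others were chosen after their values were seen. Alternatives were other lengths, units, chromosomes and starts. Lookup, pairing and motif search were tested on simulated data. Computation used Python 3.11.15, numpy 2.4.6, pandas 2.3.3, scipy 1.17.1 and matplotlib 3.10.9.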

Additional observations from a re-analysis of the deposited data

How the results depend on the processing

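The count and share of broad peaks follow the length chosen. Promoter peaks of 1500 bases or more numbered 5232 (10.6%), those of 2500 or more 298 (0.606%) and those of 3000 or more 62 (0.126%), against 1403 (2.85%) at 2000. The share was 4.19% among peaks within 1000 bases of the listed start, 6.3% among those over it, and 5.08% with the gene as the unit, while leaving out chromosome 19 gave 2.91%. The share of broad peaks with more bases downstream was 60.2%, and 54.4% at 3000 bases or 56.4% with all transcript starts named in the list. An opposite-strand start stood upstream of 30.8% of genes with a broad start peak, and of 24.1% at 2500 bases. The GC difference of 5 percentage points stayed between 3.67 and 5.67 over the alternatives run. Of 29 lists, 15 lay above the background, with 21, 10 and 17 at 1500 bases, at 2500 bases and with peaks near the gene start. Over these alternatives, 70 of 87 list comparisons kept their side of the background and 17 did not. At 1500 bases the heat shock, cyclin, ubiquitin, translation, leukocyte, HOX and solute carrier lists lay above the background and the helicases below it. At 2500 bases the histone, TGF-beta, NF-kB, splicing and endothelial lists held 0 broad genes. No paired analysis was possible because no row carries values per library, and leaving out replicates, other normalizations and count filters were not run for the same reason. Without library values, depth and replicate error limit every statement.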
